A study of Sus scrofa with 18 samples.

Results

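Subcutaneous adipose tissue (SAF) and visceral adipose tissue (VAF) of Bama miniature pigs were compared at 3 months of age, in 6 of the 18 RNA-seq libraries of the series. The members were the columns of the count table that carry the names of the 2 depots at that age, 3 libraries for SAF and 3 for VAF. The animals were untreated males that shared a sire and were fasted before slaughter. SAF was cut from the back over the last ribs and VAF from beside the kidney, and both depots came from the same pigs, although nothing states that equal replicate numbers mean the same pig. Each library is bulk tissue of 1 pig, so p-values describe the spread between 3 pigs a depot. In bulk tissue, fewer cells of a type and less RNA per cell cannot be told apart. For 4 VAF samples of 3 and 6 months, the title and the description name different libraries. The column names were followed here, and the other reading, in which the library named VAF6-1 stands in place of VAF3-3, is given for the calls and classes of 3 months. At 3 months the SAF libraries belong to a set in which many reads were removed for unread bases and the VAF libraries to a set in which few were, so depot and read set cannot be told apart.

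Fat depots arise from different stretches of embryonic mesoderm, and their adipocyte precursors keep position-dependent transcription factors, such as members of the T-box, HOX and IRX families, into adult life. White adipocytes take up fatty acids, make and store triglyceride and secrete hormones such as leptin and adiponectin. Fat beside the kidney lies close to the ureter, the renal capsule, the peritoneal lining and large vessels. The ureter wall consists of a urothelium, which carries uroplakin plaques, around which lies smooth muscle.

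The 250 bases before the annotated start of 3 genes that lead the results are shown because these genes differed in every VAF library and their promoters differ in CpG content. They were read from the Sscrofa11.1 genome with RefSeq gene starts, 5′ to 3′ on the strand of the gene, and capitals mark CG dinucleotides. TBX15 (chr4:101918641-101918890, plus strand) encodes a developmental transcription factor. ADAM7 (chr14:8484141-8484390, plus strand) encodes a member of the ADAM family of membrane proteins, and ENPP6 (chr15:45441134-45441383, minus strand) encodes a choline phosphodiesterase.
TBX15: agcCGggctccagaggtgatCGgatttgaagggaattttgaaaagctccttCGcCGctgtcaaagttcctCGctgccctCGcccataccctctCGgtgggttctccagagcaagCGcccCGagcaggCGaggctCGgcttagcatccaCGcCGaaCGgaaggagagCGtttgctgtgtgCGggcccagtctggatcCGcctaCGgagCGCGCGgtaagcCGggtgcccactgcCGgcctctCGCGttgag
ADAM7: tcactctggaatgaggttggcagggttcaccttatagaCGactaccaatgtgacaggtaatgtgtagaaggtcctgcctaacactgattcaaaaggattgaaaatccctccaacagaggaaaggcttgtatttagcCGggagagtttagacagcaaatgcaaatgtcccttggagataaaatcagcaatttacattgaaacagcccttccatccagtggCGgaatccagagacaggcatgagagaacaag
ENPP6: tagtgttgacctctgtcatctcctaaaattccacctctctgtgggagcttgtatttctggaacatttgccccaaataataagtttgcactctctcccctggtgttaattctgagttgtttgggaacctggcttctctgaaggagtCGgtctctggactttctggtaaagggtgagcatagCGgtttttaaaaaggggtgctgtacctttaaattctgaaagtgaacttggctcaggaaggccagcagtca
The TBX15 window holds 25 CG dinucleotides, whereas the ADAM7 window holds 3. The ratio of observed to expected CG was 0.977 for TBX15, 0.241 for ADAM7 and 0.158 for ENPP6.

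The libraries held between 16889862 and 22070810 counts and detected between 18610 and 19289 genes with at least 1 count. Values per gene are CPM, counts scaled to a common library total, normalised by TMM within the age. The marker lists put the VAF libraries into unlike states before any gene was compared. The summed CPM of 19 urothelium markers was 19.8, 71.6 and 48.1 in SAF3-1, SAF3-2 and SAF3-3, and 4086, 1732 and 93.6 in VAF3-1, VAF3-2 and VAF3-3. VAF3-1 and VAF3-2 thus stood far above every other library, since the other 12 libraries of the series ranged from 7.35 to 124 CPM. The 16 smooth muscle markers summed to 607, 1016 and 888 CPM in SAF and to 11640, 10597 and 907 CPM in VAF, so that VAF3-3 lay within the SAF range. Uroplakin transcripts, which define urothelium, were among the clearest: UPK2 reached 445 CPM in VAF3-1 and 185 CPM in VAF3-2 and was at most 0.0515 CPM in the other 4 libraries. The 15 adipocyte markers went the other way, with sums of 27398, 22380 and 27365 CPM in SAF and 8899, 7685 and 25938 CPM in VAF. The geometric mean of these markers was 37.2% of the SAF mean in VAF3-1, 28.9% in VAF3-2 and 87.6% in VAF3-3. VAF3-3 carried kidney transcripts instead: 12 kidney markers summed to 36.3 CPM there and to between 0.412 and 3.31 CPM in the other 5 libraries of this age. All 6 libraries thus held adipocyte RNA in quantity, whereas VAF3-1 and VAF3-2 also held urothelium and smooth muscle RNA. Mesothelium markers summed to 536, 344 and 25.4 CPM in VAF, but most of that was KRT8 and KRT18, which urothelium also makes. The more specific UPK3B, LRRN4 and CALB2 were at most 0.841 CPM in every library. WT1, also on that list, went the other way and was higher in every VAF library than in any SAF library. MSLN and ITLN1 are missing from the count table, so the markers leave the share of mesothelium RNA unsettled.

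**Figure D1:**
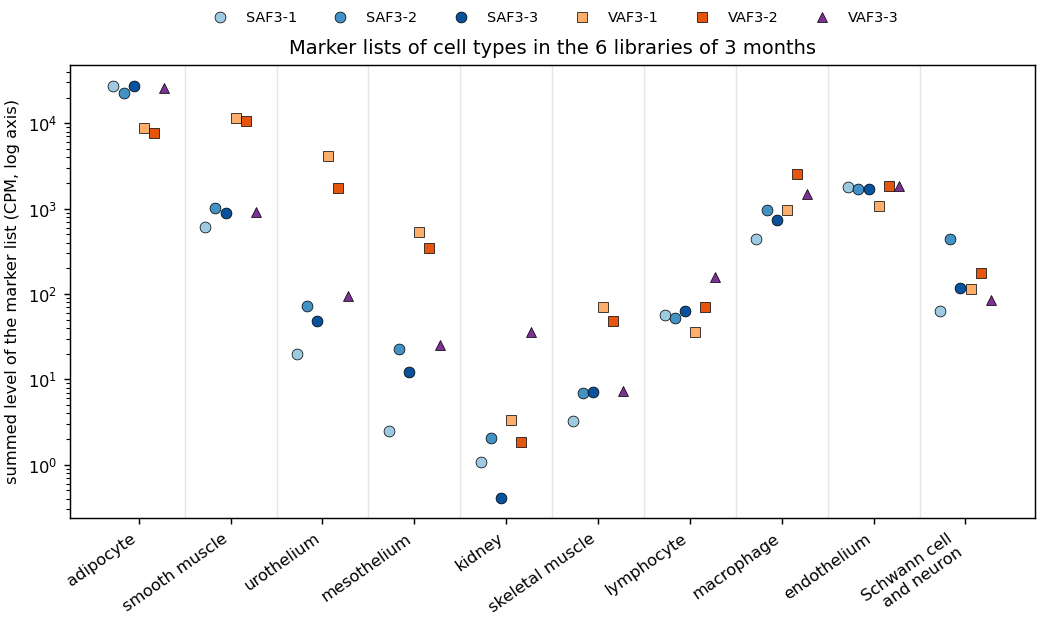
Summed CPM (log scale) of marker lists in each of the 6 libraries of 3 months, 1 point a library. Urothelium and smooth muscle markers are high in VAF3-1 and VAF3-2, adipocyte markers are low in the same 2 libraries, and kidney markers are highest in VAF3-3, at 36.3 CPM.

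Of 14960 genes tested with edgeR, 6 (0.0401%) passed the limits of the study, an adjusted p (Benjamini-Hochberg) under 0.05 with a change of more than 1.5-fold. Of these, 3 were higher in SAF (0.0201%; TBX15, ADAM7 and ND6) and 3 higher in VAF (0.0201%; ENPP6, ADGRD1 and DUOX2). The log2 fold changes are SAF over VAF, so a positive value is higher in SAF. All 6 calls were lost when any one of SAF3-1, SAF3-2, SAF3-3, VAF3-1 or VAF3-2 was left out, which left 0 genes past the limits. An unadjusted p under 0.05 was reached by 1880 genes, or 12.6%. DESeq2, the tool of the study, called 956 of 16528 genes (5.78%), with 208 higher in SAF (1.26%) and 748 higher in VAF (4.53%). When VAF3-3 was left out, edgeR called 2740 of 15571 genes (17.6%), of which 1035 (6.65%) were SAF-higher and 1705 (10.9%) VAF-higher, and when VAF3-1 and VAF3-2 were left out, it called 17 of 15930 (0.107%), 5 higher in SAF (0.0314%) and 12 higher in VAF (0.0753%). In the last fit VAF3-3 stands alone, and its spread is taken to be that of the SAF libraries.

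To separate the genes that differ in every VAF library from those carried by VAF3-1 and VAF3-2, each VAF library was set against the 3 SAF libraries by itself. The scale was log2 of CPM plus 0.5, for the 15408 genes with a mean of at least 0.5 CPM. A VAF library stood apart for a gene when it lay outside the range of all 3 SAF libraries and at least 2-fold from their mean. All 3 VAF libraries stood apart upwards for 144 genes (0.935%) and downwards for 124 genes (0.805%). VAF3-1 and VAF3-2 stood apart without VAF3-3, which lay in the SAF range or within 1.5-fold of the SAF mean, for 958 genes upwards (6.22%) and 570 downwards (3.70%). A further 167 genes upwards and 60 downwards had VAF3-3 between these limits. The other pairs of VAF libraries shared far fewer genes, at most 67, and VAF3-3 stood apart by itself upwards for 201 genes and downwards for 99. These classes use the measured values, so their counts and medians are a description. The all-three class just reached its limit at COL4A6 upwards, with 2.86, 7.75 and 5.35 CPM in SAF and 10.4 CPM in VAF3-3, and at PLK2 downwards, with 39.9, 89.7 and 125 CPM in SAF and 38.0 CPM in VAF3-3. HEPH, at 0.996 above the SAF mean in VAF3-3 on the log2 scale, and CDO1, at -0.989 in VAF3-1 and -0.995 in VAF3-3, lay just outside.

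**Figure D2:**
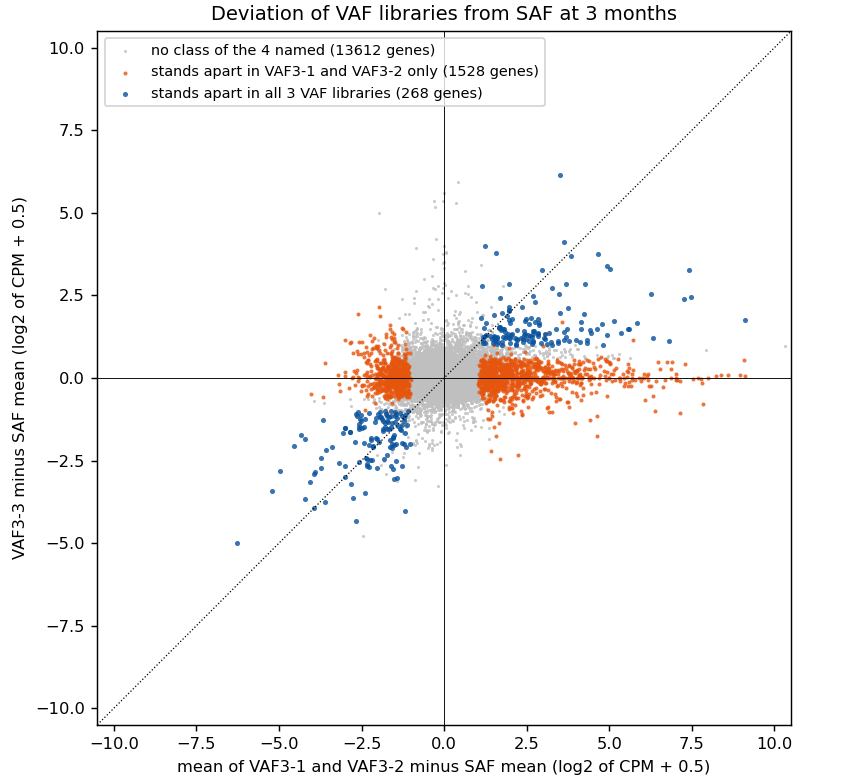
Deviation of VAF3-3 from the SAF mean (vertical axis, log2 of CPM + 0.5) against the mean deviation of VAF3-1 and VAF3-2 (horizontal axis, same scale), 1 point a gene. The 268 genes of the all-three classes lie in the lower left and upper right, and the 1528 genes of the two-library classes lie along the horizontal line at 0.

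The calls of the 2 tools divided unequally among these classes. Of the 748 genes that DESeq2 called higher in VAF, 137 (18.3%) were in the all-three class and 404 (54.0%) in the two-library class. Of the 208 that it called higher in SAF, 110 (52.9%) were in the all-three class and 21 (10.1%) in the two-library class. The 6 genes called by edgeR were all in the all-three classes. Without VAF3-3, edgeR called 1705 genes higher in VAF, of which 857 (50.3%) were two-library genes and 134 (7.86%) all-three genes. Members of a class were chosen from the same 6 libraries, so these shares show where the calls lie and do not test the classes.

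The genes lower in all 3 VAF libraries included transcription factors of development. TBX15, a T-box factor of the dorsal body wall and limb, had 106, 129 and 152 CPM in SAF3-1, SAF3-2 and SAF3-3, and 1.16, 1.15 and 3.50 CPM in VAF3-1, VAF3-2 and VAF3-3. The highest VAF library therefore lay far below the lowest SAF library, and the log2 fold change was 6.04 with a standard error (SE) of 0.51 (edgeR adjusted p = 0.026). With VAF6-1 in place of VAF3-3 it was 4.74, and the call was lost (edgeR adjusted p = 0.086). Its CG-rich promoter is printed above. ZIC1, a zinc finger factor of dorsal neural tissue and somites, had 3.26, 17.1 and 6.23 CPM in SAF and 0 counts in every VAF library. Against a floor of 3 counts a library, SAF was at least 60.1-fold higher. EN1, a homeobox factor of the hindbrain border and of dermal fibroblast precursors, had 17.2, 17.9 and 20.4 CPM in SAF and 1.89, 1.62 and 5.46 CPM in VAF. Its groups did not overlap, but edgeR gave an adjusted p of 0.16 with all 6 libraries, against 1.5e-05 with DESeq2.

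The Iroquois factors IRX3 and IRX5, which lie near each other in 1 gene cluster, went the same way. IRX3 had 23.1, 38.1 and 24.4 CPM in SAF and 4.83, 3.20 and 0.895 CPM in VAF. In contrast to TBX15, the lowest of these values was in VAF3-3, the VAF library with SAF-like adipocyte markers. IRX5 had 3.60, 5.06 and 3.29 CPM in SAF and 0.263, 0.734 and 0.298 CPM in VAF. SHOX2, a limb homeobox factor, had 37.8, 27.3 and 35.4 CPM in SAF and 5.04, 4.66 and 15.3 CPM in VAF, and here VAF3-3 was the nearest to SAF. Leaving out VAF3-1 and VAF3-2 left 5 genes called higher in SAF by edgeR, TBX15, ADAM7 and IRX3 among them.

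Genes of proteases and of the matrix were also found among those lower in all 3 VAF libraries. ADAM7 had 37.0, 47.9 and 28.9 CPM in SAF and 1.63, 1.41 and 2.47 CPM in VAF. The 3 VAF libraries lay close together, and the log2 fold change was 4.36 with an SE of 0.34 (edgeR adjusted p = 0.026). With VAF6-1 in place of VAF3-3 it was 5.12 (edgeR adjusted p = 0.053). ADAMDEC1, a secreted ADAM-like protease of macrophages and stromal cells, had 13.8, 8.66 and 9.01 CPM in SAF and 0.788, 0.891 and 1.19 CPM in VAF. Its log2 fold change of 3.44 with an SE of 0.38 just missed the limit (edgeR adjusted p = 0.051). THBS4, a thrombospondin of tendon and muscle matrix, had 139, 122 and 473 CPM in SAF and 3.10, 7.55 and 18.3 CPM in VAF. MMP27, a matrix metalloproteinase, had 52.5, 49.9 and 19.8 CPM in SAF and 1.73, 0.157 and 4.86 CPM in VAF. In both genes the groups were wide apart while the libraries within a group differed by several fold, and with VAF6-1, at 19.8 CPM, in place of VAF3-3 the log2 fold change of MMP27 fell from 4.15 to 2.48.

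Some of the wide gaps rested on 1 SAF library. TNMD, the tendon protein tenomodulin, had 3.14, 0.183 and 122 CPM in SAF and 0, 0.105 and 0 CPM in VAF, and it did not pass the filter on low counts. OTOR, a small protein made in cartilage and the inner ear, had 2.11, 0.610 and 53.9 CPM in SAF and 0.263, 0.262 and 0.0853 CPM in VAF. COL11A1, a fibrillar collagen of cartilage and tendon, had 8.80, 4.27 and 61.5 CPM in SAF and 0.578, 0.524 and 1.62 CPM in VAF. The same library, SAF3-3, was the highest in all 3 of these genes.

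Genes of lipid handling and secretion that were lower in all 3 VAF libraries were few. LEP, the hormone leptin, had 149, 77.8 and 58.0 CPM in SAF and 22.6, 10.1 and 30.2 CPM in VAF. VAF3-3, whose adipocyte marker mean was 87.6% of that of SAF, was still below every SAF library, although within 2-fold of the lowest one. APOD, a lipocalin that binds small lipids, had 232, 422 and 316 CPM in SAF and 17.1, 16.1 and 86.8 CPM in VAF. LIPG, endothelial lipase, had 19.6, 44.8 and 23.6 CPM in SAF and 8.62, 6.60 and 10.4 CPM in VAF. CYP7A1, the rate-limiting enzyme of bile acid synthesis in liver, had 10.9, 5.25 and 3.96 CPM in SAF and 0.210, 0.0524 and 1.07 CPM in VAF. All 4 were called by DESeq2, and none by edgeR with all 6 libraries, where their adjusted p lay between 0.17 and 0.20. Among secreted signals, IL6, an inflammatory cytokine, had 2.57, 4.09 and 6.28 CPM in SAF and 0.525, 0.838 and 0.682 CPM in VAF. BMP5, a bone morphogenetic protein, had 3.77, 16.8 and 21.0 CPM in SAF and 0.683, 3.67 and 0.554 CPM in VAF. PGLYRP2, a peptidoglycan-cleaving amidase, had 321, 199 and 113 CPM in SAF and 21.0, 7.07 and 25.2 CPM in VAF. CYP2A19, a cytochrome P450 of a family with close paralogues between which reads may be split, had 27.7, 279 and 142 CPM in SAF and 2.36, 16.2 and 13.9 CPM in VAF. When the adipocyte markers were held equal between libraries, LEP, LIPG, IL6, BMP5 and CYP2A19 left the class, and LIPG deviated from the SAF mean by -0.25, -0.27 and -1.17 on the log2 scale.

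ND6, a subunit of respiratory complex I encoded on the light strand of mitochondrial DNA, had 217, 166 and 248 CPM in SAF and 38.2, 43.3 and 37.6 CPM in VAF. The log2 fold change was 2.41 with an SE of 0.23 (edgeR adjusted p = 0.029). ND6 overlaps ND5 on the other strand, and whether the counting used strand is not given, so its reads are uncertain. The counts of THBS4, COL11A1, IRX3, CYP7A1, WT1, HOXA9, HOXA10, GATA6, WNT2B, WNT5A, WNT10B and MYH11 can likewise hold reads of a gene on the other strand. ND5 itself had 5851, 4164 and 5309 CPM in SAF and 1117, 703 and 3864 CPM in VAF, with VAF3-3 near the SAF range. Of the 12 mitochondrially encoded genes tested, 11 were below every SAF library in all 3 VAF libraries, against 7.37% of all tested genes, and none was above, against 8.27%. Their median log2 fold change was 1.25, against -0.00 over all genes. ND6 was the only one called by edgeR, 9 were called higher in SAF by DESeq2 (1.26% of all genes were), and 1 was in the all-three class and 3 in the two-library class. Adipocyte markers were lower in VAF3-1 and VAF3-2 as well. When they were held equal between libraries, the median difference of the mitochondrially encoded genes (VAF minus SAF, log2) went from -1.31 to -0.18. None was then in the all-three class. Under the same scaling the median over all tested genes went from -0.01 to 1.05, so the mitochondrially encoded genes stayed below it. The part of the adipocyte share in their difference was not tested.

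**Figure D3:**
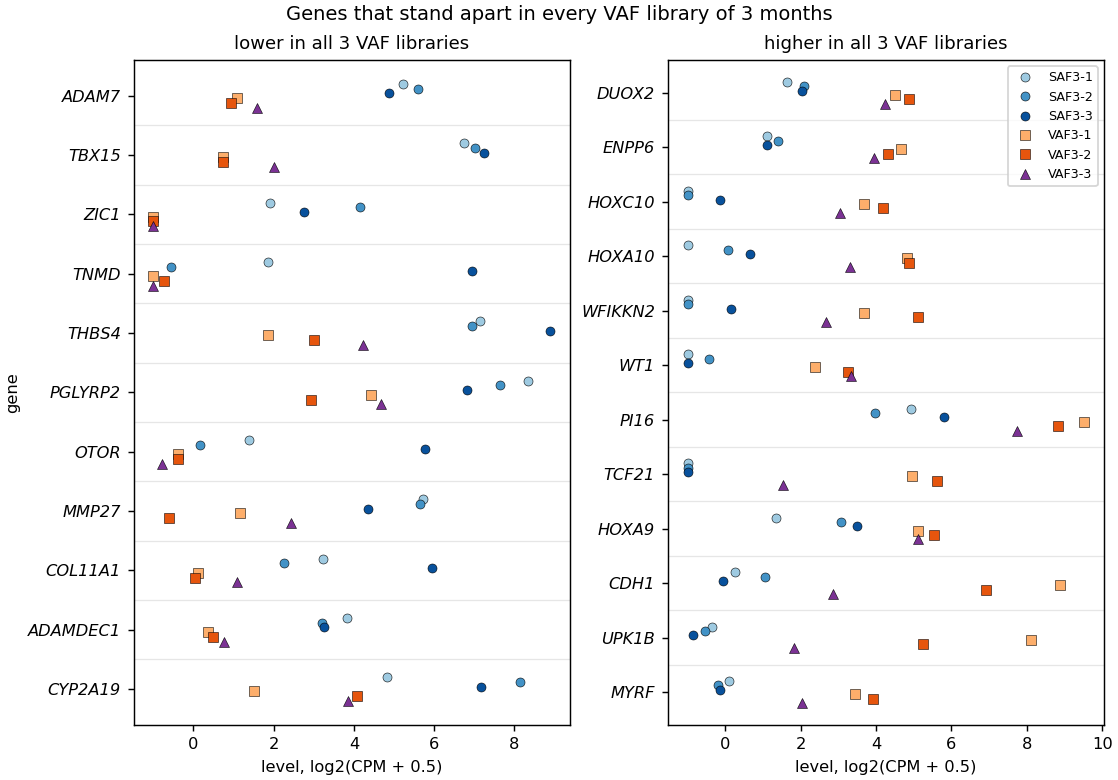
Level (log2 of CPM + 0.5) of 11 genes lower (left) and 12 genes higher (right) in all 3 VAF libraries, chosen for the largest deviation in the VAF library nearest to SAF, 1 point a library. On the left no VAF point reaches the SAF points of its gene, and on the right VAF3-3 is the lowest VAF point for most genes, as in UPK1B at 3.03 CPM.

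The genes higher in all 3 VAF libraries began with 3 membrane proteins at like levels in each VAF library. ENPP6, a choline phosphodiesterase, had 1.66, 2.14 and 1.65 CPM in SAF and 24.7, 19.3 and 14.8 CPM in VAF. The log2 fold change was -3.43 with an SE of 0.32 (edgeR adjusted p = 0.029). ADGRD1, an adhesion G protein-coupled receptor, had 16.5, 13.1 and 17.5 CPM in SAF and 70.2, 55.1 and 71.0 CPM in VAF. VAF3-3 was thus as high as VAF3-1, and the log2 fold change was -2.06 with an SE of 0.21 (edgeR adjusted p = 0.041). DUOX2, a dual oxidase that makes hydrogen peroxide, had 2.63, 3.78 and 3.60 CPM in SAF and 22.1, 28.7 and 18.4 CPM in VAF, with a log2 fold change of -2.79 and an SE of 0.30 (edgeR adjusted p = 0.046). Its maturation factor DUOXA2 was also higher in all 3, at 0.914, 1.04 and 2.21 CPM in SAF and 9.61, 16.6 and 4.99 CPM in VAF. DUOX1, the paralogue of DUOX2, stood apart in VAF3-1 and VAF3-2 and not in VAF3-3, at 8.72, 2.93 and 1.28 CPM against 0.488 to 0.978 CPM in SAF. Of the 144 genes, 47 (32.6%) stayed within 2-fold among the 3 VAF libraries, and 112 (77.8%) were nearest to SAF in VAF3-3.

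HOX genes, which mark position along the body axis, gave 5 members of the class higher in all 3 VAF libraries. HOXC10 had 0, 0 and 0.412 CPM in SAF and 12.3, 17.7 and 7.76 CPM in VAF. HOXA10 had 0, 0.549 and 1.08 CPM in SAF and 27.5, 28.6 and 9.34 CPM in VAF. HOXA9, its neighbour in the cluster, was present in both depots, with 2.06, 7.93 and 10.7 CPM in SAF and 34.1, 46.2 and 34.0 CPM in VAF. HOXB5 and HOXB6 were the other members, and none of the 36 HOX genes in the table was lower in all 3. A further 9 HOX genes were high in VAF3-1 and VAF3-2 only. HOXA11 belonged to these, with 0 counts in all SAF libraries and 14.3, 14.7 and 0.213 CPM in VAF, as did HOXC11 with 6.15, 8.12 and 0.171 CPM. HOXC8, from the middle of its cluster, overlapped between the depots with 7.82 to 12.3 CPM in SAF and 6.95 to 13.4 CPM in VAF. Neighbouring HOX genes overlap or abut antisense transcripts, so reads can be shared where strand was not used. For the 24 HOX genes tested, the median log2 fold change was -0.48, 8 were called higher in VAF by DESeq2 (4.53% of all genes were) and none was called by edgeR, where 7 had an unadjusted p under 0.05 (12.6% of all genes did).

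Other transcription factors and secreted proteins were also higher in all 3 VAF libraries, although OSR1, FOXF1 and TBX18, which are likewise factors of mesoderm, were not. WT1, a zinc finger factor of mesothelium and kidney precursors, had 0, 0.244 and 0 CPM in SAF and 4.68, 9.12 and 9.51 CPM in VAF. VAF3-3, the library with the highest kidney marker sum, was thus at a level like that of VAF3-2. The source of the WT1 reads was not tested. TCF21, a basic helix-loop-helix factor of visceral mesoderm, had 0 counts in SAF and 30.3, 48.2 and 2.39 CPM in VAF. VAF was at least 159-fold higher against a floor of 3 counts a library, although VAF3-3 was more than 10 times below the other VAF libraries. GATA6 had 4.68, 7.08 and 5.76 CPM in SAF and 34.7, 48.3 and 16.3 CPM in VAF. MEIS1, a HOX cofactor, had 6.40, 6.53 and 7.20 CPM in SAF and 36.5, 39.5 and 18.6 CPM in VAF. Both had VAF3-3 above every SAF library at a lower level than the other VAF libraries. ALX1, a homeobox factor of craniofacial mesenchyme, went against this order with 0 counts in SAF and 0.630, 0.734 and 7.42 CPM in VAF. PI16, a marker of adipose progenitor cells and adventitial fibroblasts, had 30.0, 15.2 and 54.9 CPM in SAF and 738, 453 and 212 CPM in VAF. WFIKKN2, a secreted inhibitor of myostatin, had 0, 0 and 0.618 CPM in SAF and 12.3, 34.2 and 5.93 CPM in VAF.

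Of the WNT ligands in the list of adipokines and secreted factors, 4 were higher in all 3 VAF libraries, whereas WNT2 was so in VAF3-3 alone and WNT11 in VAF3-2 alone. WNT2B had 1.26, 2.14 and 2.57 CPM in SAF and 13.3, 16.1 and 8.06 CPM in VAF. WNT10B had 1.83, 3.05 and 1.49 CPM in SAF and 6.36, 15.2 and 5.76 CPM in VAF, and WNT5A had 6.68, 8.05 and 9.42 CPM against 63.8, 22.2 and 16.5 CPM. WNT5A left the class when DESeq2 size factors were used in place of TMM. WNT16 had 0 counts in SAF and was highest in VAF3-3, at 0.630, 0.576 and 2.94 CPM. DKK3, a member of the Dickkopf family of secreted proteins, had 5.03, 6.22 and 13.7 CPM in SAF and 27.6, 34.6 and 27.0 CPM in VAF, and so hardly differed among the VAF libraries. BMP7, a bone morphogenetic protein, had 2.91, 5.43 and 4.58 CPM in SAF and 26.6, 13.7 and 11.2 CPM in VAF.

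Membership in the all-three class did not separate every gene from the urothelium. CDH1, the epithelial cadherin, had 0.685, 1.59 and 0.463 CPM in SAF and 469, 120 and 6.78 CPM in VAF. UPK1B, a uroplakin, had 0.286, 0.183 and 0.0515 CPM in SAF and 277, 37.1 and 3.03 CPM in VAF. KRT7 and KRT19, keratins of simple and transitional epithelium, had 1.49 and 7.25 CPM in VAF3-3 but 402 and 501 CPM in VAF3-1. They entered the class because VAF3-3 lay above the SAF range, at a level far below that of VAF3-1. In all, 6 of the 19 urothelium markers in the table were all-three genes and 10 were two-library genes. The uroplakins UPK1A, UPK2 and UPK3A were at most 0.256 CPM in VAF3-3. AKR1C1, an aldo-keto reductase of a family with close paralogues, had the same shape as CDH1, with 101, 69.0 and 1.88 CPM in VAF and at most 1.20 CPM in SAF. MYRF, a membrane-bound transcription factor, had 0.571, 0.366 and 0.412 CPM in SAF and 10.3, 14.5 and 3.62 CPM in VAF. CDH16, a kidney cadherin, had 0 counts in SAF and 2.26, 0.891 and 3.11 CPM in VAF. The part of urothelium and kidney RNA in these differences was not tested.

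The two-library genes higher in VAF3-1 and VAF3-2 were led by contractile proteins. MYH11, smooth muscle myosin heavy chain, had 52.4, 122 and 83.8 CPM in SAF and 2744, 2059 and 121 CPM in VAF. ACTG2, the actin of visceral smooth muscle and a near-identical paralogue of ACTA2, had 2.23, 8.85 and 10.2 CPM in SAF and 1337, 1086 and 5.84 CPM in VAF. VAF3-3 was within the SAF range for both. The edgeR log2 fold change of ACTG2 was -6.83 with an SE of 1.70 (adjusted p = 0.20) for all 6 libraries. Without VAF3-3 it was -7.43. The class was chosen for VAF3-3 lying near SAF, so the fit without that library does not test the difference. ACTA2, TAGLN and MYL6 had the same form, at 1549, 1267 and 1869 CPM in VAF3-1 and 206, 164 and 560 CPM in VAF3-3. Of the 16 smooth muscle markers, 13 were two-library genes and none was an all-three gene. S100A6, a calcium-binding protein of epithelium and fibroblasts, had 35.4, 103 and 69.2 CPM in SAF and 1737, 1457 and 28.4 CPM in VAF. FBLN1, the matrix protein fibulin-1, had 139, 128 and 158 CPM in SAF and 1137, 1352 and 187 CPM in VAF. RPS16, a ribosomal protein, had 403, 524 and 559 CPM in SAF and 1010, 1120 and 463 CPM in VAF, a smaller difference than the contractile genes. Of the 958 genes, 269 (28.1%) did not pass the edgeR filter on low counts for 6 libraries, UPK1A, UPK2 and UPK3A among them.

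Of the 15 adipocyte markers, 11 were two-library genes lower in VAF3-1 and VAF3-2 and 1 was lower in all 3. The class of 570 genes also held endothelial genes such as KDR and CDH5, the T-box factor TBX5 and the mitochondrial gene ND5. FASN, fatty acid synthase, had 27686, 9232 and 12972 CPM in SAF and 5364, 4397 and 17258 CPM in VAF. VAF3-3 was higher than 2 of the SAF libraries, and the log2 fold change was 0.88 with an SE of 0.65 (edgeR adjusted p = 0.61). LPL, lipoprotein lipase, had 5534, 3672 and 4411 CPM in SAF and 1081, 485 and 5307 CPM in VAF. FABP4, the fatty acid carrier of adipocytes, had 5111, 5055 and 6611 CPM in SAF and 2148, 2531 and 5393 CPM in VAF. ACLY, which makes cytosolic acetyl-CoA, had 8363, 2223 and 3414 CPM in SAF and 751, 858 and 3374 CPM in VAF. THRSP, a regulator of lipogenesis, had 6261, 3434 and 5413 CPM in SAF and 1100, 840 and 5485 CPM in VAF. In each of these, VAF3-3 lay within the SAF range. CYTB, a mitochondrially encoded subunit of complex III, and COL4A1, a basement membrane collagen whose gene abuts COL4A2 on the other strand, had VAF3-3 below the SAF range by less than 1.5-fold, at 3106 and 3259 CPM. The adipocyte hormone ADIPOQ had 2070, 1707 and 1892 CPM in SAF and 607, 437 and 2305 CPM in VAF.

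**Figure D4:**
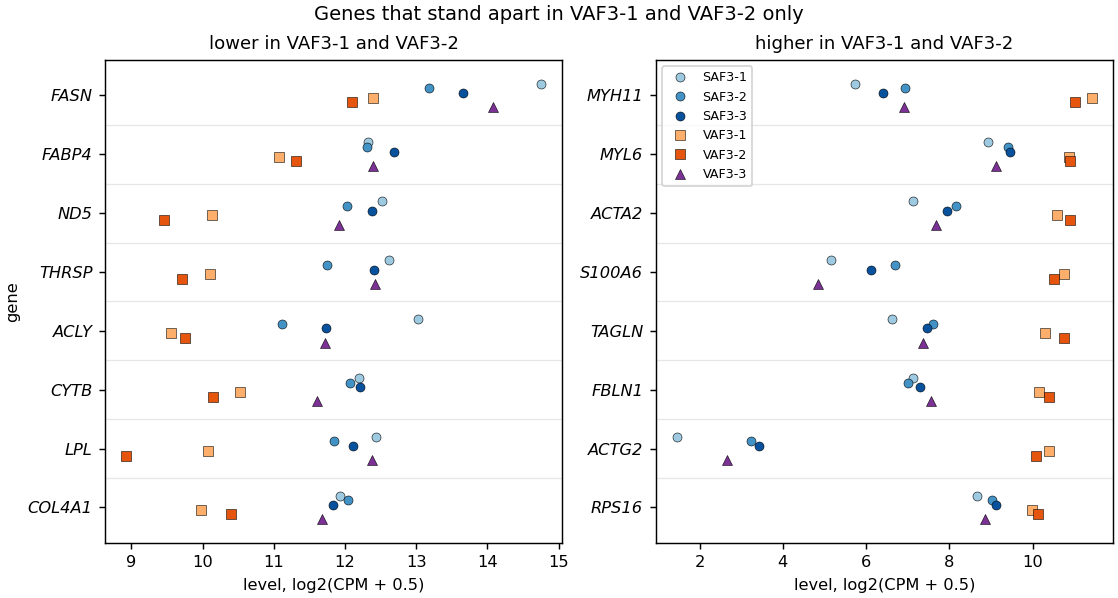
Level (log2 of CPM + 0.5) of 8 genes lower (left) and 8 genes higher (right) in VAF3-1 and VAF3-2 only, chosen by their level, 1 point a library. VAF3-3 lies among or next to the SAF points for every gene, as in LPL at 5307 CPM, while VAF3-1 and VAF3-2 lie apart.

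Most of the metabolic genes that stood apart did so in VAF3-1 and VAF3-2 only. Of 25 genes of fatty acid and triglyceride synthesis, 13 were lower in VAF3-1 and VAF3-2 only and none was lower or higher in all 3. The median log2 fold change was 0.88. Of 25 lipolysis genes, 13 were likewise two-library genes lower in VAF, such as LIPE, hormone-sensitive lipase, at 1469, 1274 and 1725 CPM in SAF and 456, 515 and 1346 CPM in VAF. None of these was an all-three gene either. Of 27 genes of lipoprotein and fatty acid uptake, 7 were two-library genes lower in VAF and 3 (LIPG, APOD and CYP7A1) were lower in all 3. Insulin signalling gave 5 two-library genes lower in VAF of 25, IRS1 and AKT2 among them, and no all-three gene. Median deviations from the SAF mean in VAF3-3 were -0.12 for synthesis, -0.11 for lipolysis, -0.05 for uptake and -0.06 for insulin signalling, against 0.02 over all genes. In VAF3-1 the same medians were -1.32, -1.22, -1.23 and -0.59. No gene of these 4 lists was called by edgeR with 6 libraries, where 6, 6, 8 and 5 had an unadjusted p under 0.05, against 12.6% of all genes. DESeq2 called 2, 3, 6 and 1 higher in SAF and 1, 0, 1 and 1 higher in VAF, against 1.26% and 4.53% of all genes. With the adipocyte markers held equal between libraries, a scaling described further on, the medians of all 4 lists rose. They went from -1.01, -0.84, -0.83 and -0.31 (VAF minus SAF, log2) to 0.12, 0.25, 0.30 and 0.81. The median over all tested genes rose with them, from -0.01 to 1.05, and stayed above all 4. Some of the markers held equal, such as LIPE, are members of these lists, so part of the shift is set by the scaling.

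Developmental transcription factors were more often all-three genes than those lists, a difference that was not tested. Of 47 in the table and 31 tested, 6 were higher in all 3 VAF libraries (MEIS1, ALX1, GATA5, GATA6, WT1 and TCF21) and 6 were lower in all 3 (TBX15, EN1, SHOX2, IRX3, IRX5 and NKX3-2). Another 6 were high and 2 low in VAF3-1 and VAF3-2 only. With the adipocyte markers held equal, 8 were higher and 3 lower in all 3 VAF libraries. SHOX2, IRX5 and NKX3-2 then left the lower class, and SHOX2 also left it when values were scaled to raw totals. Of the 14960 tested genes, 144 were in the all-three class upwards and 115 downwards. TBX15 was the single one called by edgeR, and DESeq2 called 11 higher in VAF and 8 higher in SAF, against 4.53% and 1.26% of all genes. Of 44 adipokines and secreted factors, 6 were higher in all 3 (BMP7, DKK3 and the 4 WNT genes described above) and 3 lower in all 3 (LEP, IL6 and BMP5). CFD, the adipocyte protease adipsin, was in the two-library class upwards. Of 26 brown and beige adipocyte genes, only ZIC1 was an all-three gene, and CIDEA, a lipid droplet protein, had 817, 795 and 664 CPM in SAF and 395, 556 and 659 CPM in VAF. Of 16 dual oxidase and thyroid hormone genes, DUOX2 and DUOXA2 were all-three genes upwards. Of 22 genes of hormone receptors and steroid enzymes, VDR, the vitamin D receptor, was lower in all 3. It had 7.83, 12.9 and 4.17 CPM in SAF and 2.78, 0.943 and 2.90 CPM in VAF. VDR left the class when the adipocyte markers were held equal. The enzyme AKR1C1 was higher in all 3. Of 30 Hippo pathway genes, WWC1 and RASSF6 were all-three genes upwards, and YAP1, the transcriptional effector, had 97.2, 64.9 and 67.3 CPM in SAF and 107, 56.2 and 61.8 CPM in VAF.

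The study singled out 4 short lists of genes on these same samples, so their direction is not independent evidence. Of its 10 lipid metabolism genes, 4 were lower in all 3 VAF libraries, 4 in VAF3-1 and VAF3-2 only, and 2 lay between. Of its 11 Hippo-related genes, 8 were higher in all 3, 2 were two-library genes and 1 lay between. CDH1, among the 8, is also a urothelium marker, and RASSF6 left the class when the adipocyte markers were held equal. The part of urothelium RNA in the differences of these genes was not tested. Of its 9 sexual development genes, 4 were higher in all 3, 2 were two-library genes and 3 lay between. Of its 18 hormone signalling genes, 4 were higher in all 3 and 12 in VAF3-1 and VAF3-2 only, including MYL9, MYLK and KCNMB1, which are also smooth muscle markers.

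VAF3-3 had genes of its own. SLC34A1, the phosphate carrier of the proximal tubule, had 7.55 CPM, and UMOD, uromodulin of the loop of Henle, had 3.20 CPM, each with 0 counts in the other 5 libraries of this age. LRP2, the tubular receptor megalin, had 11.2 CPM against 0.206 to 0.628 CPM. Of the 12 kidney markers in the table, 5 stood apart upwards in VAF3-3 alone. The 9 lymphocyte markers in the table summed to 160 CPM there against 36.2 to 70.6 CPM in the other 5 libraries. PTPRC, the pan-leukocyte phosphatase CD45, was at 86.3 CPM against 16.4 to 38.3 CPM, and JCHAIN, the joining chain of secreted antibodies, at 36.7 CPM against 2.80 to 8.29 CPM. CD3E and CD79A, markers of T and B cells, were instead high in VAF3-2 alone. Of the same list, CD3D was high in VAF3-3 alone and CD2 in VAF3-2 and VAF3-3, so the T cell markers were split between these libraries. The macrophage marker sum was also highest in VAF3-2, at 2523 CPM against 1502 CPM in VAF3-3. Of the 12 genes that edgeR called higher in VAF without VAF3-1 and VAF3-2, 4 were all-three genes, ADGRD1 and ENPP6 among them, and 8 were not, AADAT and ALOX15 among them. The kidney and lymphocyte marker sums were highest in the same library, and their part in these calls was not tested.

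The libraries of 1 and 6 months were not used to choose the genes, and they give the same classes a second measurement. At 6 months the study left out 1 VAF library, VAF6-3, and so did this comparison. Of the 144 genes higher in all 3 VAF libraries at 3 months, 108 were tested at 1 month and 98 of them had a higher mean in VAF, with a median log2 fold change of -1.01. At 6 months 94 of 109 did, with a median of -1.26. For 37 of 108 and 58 of 109 every VAF library lay above every SAF library (34.3% and 53.2%), against 8.82% and 13.9% of all tested genes. Of the 124 genes lower in all 3, 106 of 117 at 1 month and 105 of 114 at 6 months had a lower mean in VAF, with medians of 1.07 and 1.78. Every VAF library lay below every SAF library for 37.6% and 61.4% of them, against 8.72% and 14.3% of all tested genes. None of the all-three genes at 1 month, and 2 at 6 months, were separated the opposite way.

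The two-library classes kept much smaller differences. The genes higher in VAF3-1 and VAF3-2 had medians of -0.27 at 1 month and -0.17 at 6 months. Every VAF library lay above every SAF library for 14.1% and 18.9% of them, against 8.82% and 13.9% of all tested genes. The genes lower in VAF3-1 and VAF3-2 had medians of 0.46 and 0.12, and were separated in that direction for 69 of 565 (12.2%) at 1 month and 85 of 565 at 6 months, against 8.72% and 14.3%. At 1 month 521 of 565 of these, mostly by small amounts, had a lower mean in VAF, whereas at 6 months 329 of 565 did. No single gene was called by edgeR at 1 month (1702 of 15064 genes, or 11.3%, had an unadjusted p under 0.05) or at 6 months (1016 of 14962, or 6.79%), and DESeq2 called 186 of 15774 (1.18%) and 183 of 16303 (1.12%). Of the all-three genes tested, DESeq2 called 16 upwards and 21 downwards at 1 month, where it called 0.659% of all genes higher in VAF and 0.52% higher in SAF. At 6 months it called 20 and 36, against 0.626% and 0.497% of all genes. Of the larger two-library classes it called 10 upwards and 11 downwards at 1 month and 3 and 3 at 6 months in the direction of the class, and 3 and 0 at 1 month and 4 and 1 at 6 months the opposite way. At 6 months the libraries with equal numbers deviated together, and a fit with these numbers as a block gave 766 edgeR calls among 14962 genes (5.12%), of which 365 (2.44%) were SAF-higher and 401 (2.68%) VAF-higher. That fit rests on 2 pairs and 1 residual degree of freedom. It called 45 of 109 all-three genes upwards and 75 of 114 downwards in the direction of the class, and 2 and 0 the opposite way. Of the two-library genes it called 24 of 645 upwards and 42 of 565 downwards, and 8 and 2 the opposite way.

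**Figure D5:**
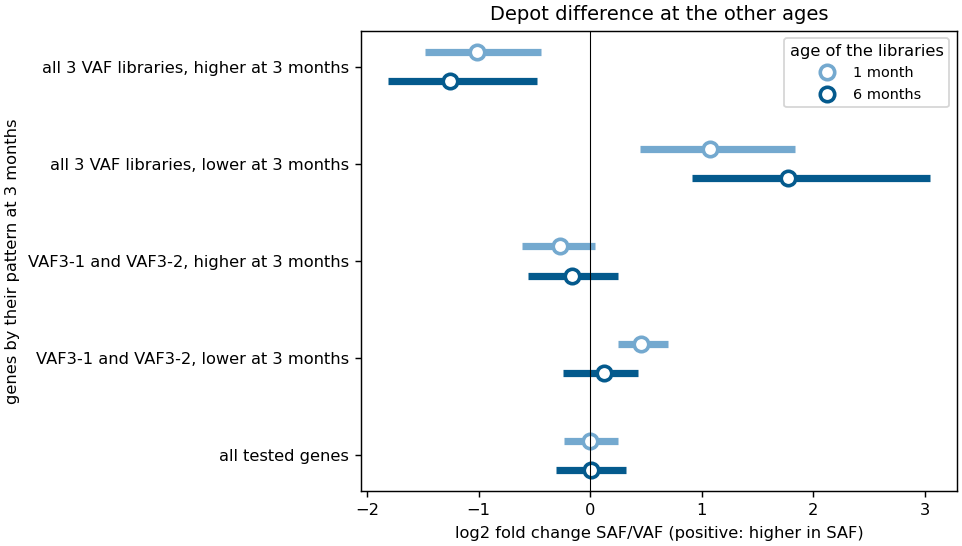
Median (circle) and quartiles (bar) of the log2 fold change SAF/VAF at 1 month and 6 months, for genes grouped by their pattern at 3 months and for all tested genes. The all-three classes lie at -1.01 and -1.26 or at 1.07 and 1.78, while the two-library classes lie within 0.46 of 0.

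Single genes differed in how far they held at the other ages. ZIC1 had 0.953 to 31.2 CPM in SAF at 1 month, 1.37 to 3.43 CPM in SAF at 6 months and 0 counts in every VAF library used at both ages. TBX15 had log2 fold changes of 1.65 at 1 month and 3.82 at 6 months, ADAM7 of 2.12 and 5.11, and ENPP6 of -2.59 and -2.49, each with no overlap between the depots. At 1 month, however, the VAF libraries ranged from 1.13 to 98.5 CPM for TBX15, and the highest lay close to the lowest SAF library at 120 CPM. HOXC10 was higher in every VAF library at both ages, with -2.28 and -1.61. HOXA10 and HOXA9, by contrast, overlapped at both, with -0.95 and -0.01 for HOXA10 and -1.20 and 0.16 for HOXA9. ADGRD1 overlapped at 1 month (-1.38) and was apart at 6 months (-1.39). DUOX2 was apart at 1 month (-1.82) and overlapped at 6 months (-0.51). With the block at 6 months, edgeR called TBX15, ADAM7, ENPP6 and ADGRD1 in the direction of 3 months, did not call HOXC10 or DUOX2 (adjusted p = 0.11 and 0.57), and called HOXA9 higher in SAF (0.70, adjusted p = 0.021). Whether the depot difference itself changed with age was tested as an interaction. edgeR called no gene (943 of 16664, or 5.66%, had an unadjusted p under 0.05 between 3 and 1 months, and 1449, or 8.7%, between 3 and 6 months), and DESeq2 called 104 of 16783 (0.62%) and 110 (0.655%). Among those called by DESeq2 were ACTG2, by -6.01 (adjusted p = 0.033) and -7.58 (adjusted p = 0.0064), and AKR1C1, by -6.81 (adjusted p = 0.00010) and -7.10 (adjusted p = 0.00023). DUOX2 differed between 3 and 6 months by -2.28 (DESeq2 adjusted p = 0.014), and PGLYRP2, which overlapped at 6 months, by 4.08 (DESeq2 adjusted p = 0.033). For TBX15 the interactions of 4.41 and 2.24 did not pass (DESeq2 adjusted p = 0.18 and 0.66).

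Reading the labels by the description field puts the library named VAF6-1 in place of VAF3-3. edgeR then called 30 of 14828 genes (0.202%), 15 in each direction (0.101% each), and 4 genes were called under both readings: ADGRD1, DUOX2, ENPP6 and ND6. The class higher in all 3 VAF libraries grew from 144 to 210 genes with 87 shared, which is 60.4% of the first and 41.4% of the second. The class lower in all 3 grew from 124 to 189 with 102 shared, 82.3% of the first and 54.0% of the second. The two-library classes shared 742 and 389 genes, 77.5% and 68.2% of those found with VAF3-3. In all of these classes VAF6-1 kept the CPM scale of the 6-month libraries. The part of that scale in the changed class sizes was not tested. The same reading puts VAF3-3 among the libraries of 6 months, where edgeR then called 1 of 15101 genes (0.00662%), and 1052 had an unadjusted p under 0.05. VAF3-3 helped to choose the classes, so their 6-month values were not computed under that reading.

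The classes also depend on what the values are scaled to. Under TMM the median difference of VAF minus SAF over all tested genes was -0.01 on the log2 scale. Scaling to raw totals put it at 0.18 and gave all-three classes of 217 genes higher and 87 lower, so the share of higher genes was 71.4% in place of 53.7%. Scaling so that the adipocyte markers had the same geometric mean in every library, an alternative added after the data were seen, put that median at 1.05. The all-three class then held 368 genes higher and 29 lower, and the two-library class lower in VAF held 22 genes, 19 of them from the 570. All 12 of the named genes higher in all 3 VAF libraries remained in their class under this scaling. Of the 12 named genes lower in all 3, 8 did, among them TBX15, ADAM7, ZIC1 and THBS4, whereas TNMD, OTOR and CYP2A19 were among those that did not, and ND6 did not either. None of the 8 named two-library genes lower in VAF, such as FASN and LPL, stayed in its class.

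The promoters of these classes were poorer in CG than those of the 14240 protein-coding genes with a window of the same length. The ratio of observed to expected CG was at least 0.6 in 62.8% of all windows, in 40.6% of 128 windows of genes higher in all 3 VAF libraries and in 36.6% of 101 windows of genes lower in all 3. It was 43.9% and 55.1% for the two-library genes higher and lower in VAF. The median ratio was 0.709 over all genes and 0.530, 0.463, 0.520 and 0.642 over the 4 classes in that order. The motif TATAAA, searched on both strands, occurred in 10.9% and 12.9% of the all-three windows, in 8.80% and 8.04% of the two-library windows and in 7.09% of all windows. TBX15 thus lies above the limit of 0.6 and most of the all-three genes below it. These are counts of letters in the windows, with no test of a difference.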

How the data were processed

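RNA-seq of SAF and VAF from Bama pigs at 1, 3 and 6 months was deposited as 1 table of counts per gene, 29884 genes in 18 columns. Per the study's methods, the authors trimmed reads with fastp, aligned them with HISAT2 2.0.4 to Sscrofa11.1 and counted them with HTSeq. The annotation release and the use of strand are not given in the sources used here. Groups followed the labels and column names.

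The counts were fitted within each age with edgeR 4.0.16 in R 4.3.3 (TMM, filterByExpr, quasi-likelihood test). Calls needed an adjusted p (Benjamini-Hochberg) under 0.05 and a change of more than 1.5-fold. DESeq2 1.42.0 was the alternative tool. Interactions of depot and age used the libraries of all ages except VAF6-3, which the study left out. Classes of VAF libraries were set on log2 of CPM plus 0.5. A value of 0 in 1 library was set against a floor of 3 counts, which covers counting error only. The fits and the class rule were tested on simulated data.

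Named were every gene called by edgeR at 3 months, 12 genes in each direction of the all-three class with the largest smallest deviation, 8 in each direction of the two-library class with the highest level, and members of lists and markers. Some results are not reported here. The members and lists were chosen with earlier results of these data known. Same-numbered SAF and VAF libraries of 3 months deviated from their group means with correlations of 0.140, 0.490 and -0.00899 across genes, and those of 1 month with -0.187, -0.0191 and 0.336, so the numbers were not used as pairs. At 6 months the correlations were 0.669, 0.521 and 0.703, and the fit with the replicate number as a block is given beside the other. Promoter windows of 250 bases came from RefSeq gene starts on Sscrofa11.1.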

Additional observations from a re-analysis of the deposited data

How the results depend on the processing

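The count of 6 genes called by edgeR at 3 months rested on the choice of tool and libraries. It was 956 with DESeq2, 3940 with DESeq2 without VAF3-3, 1634 with DESeq2 under the description reading, 455 with all groups in 1 fit, 30 under the description reading and 17 without VAF3-1 and VAF3-2. Leaving out 1 library at a time gave 0 to 2740 calls, the highest without VAF3-3, and each of the other 5 libraries left out ended all 6 calls. With the replicate number as a block it was 9 at 3 months, where TBX15 and ADAM7 were called and ENPP6, ADGRD1, DUOX2 and ND6 were not (adjusted p = 0.058, 0.058, 0.066 and 0.072), 0 at 1 month and 766 at 6 months. At 1 month it was 0, with 186 by DESeq2, 1 without a filter and 0 to 2 with 1 library left out. At 6 months it was 0, with 183 by DESeq2, 1 with VAF6-3, 1 under the description reading, 3 without a filter and 0 to 1 with 1 library left out. DESeq2 gave 104 and 110 interaction calls where edgeR gave 0.

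The 144 genes higher in all 3 VAF libraries became 293 and 44 with pseudocounts of 0.1 and 2, 433 at 1.5-fold, 17 at 4-fold, 217 on raw totals, 368 with adipocyte markers held equal and 144 to 1269 with 1 library left out. The 124 lower became 72 with a pseudocount of 2, 260 at 1.5-fold, 28 at 4-fold, 189 with VAF6-1 for VAF3-3, 29 with adipocyte markers held equal and 120 to 754 with 1 library left out. The two-library classes of 958 and 570 became 1718 and 1522 at 1.5-fold, 368 and 46 at 4-fold, 8773 and 22 with adipocyte markers held equal and 935 to 1647 and 483 to 1380 with 1 library left out, and the lower one 376 on raw totals. The 4 classes together, 1796 genes, became 3933 at 1.5-fold, 459 at 4-fold and 9192 with adipocyte markers held equal. The upper ends are without VAF3-3 for the all-three classes and without VAF3-1 for the two-library classes, where a class asks for fewer libraries by construction.

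Of 613 values of named genes under the alternatives, 605 kept their direction. Most of these genes were named for their values in the libraries refitted here. Their direction was thus largely set by that choice, and the tally does not test it. The 8 that reversed were two-library genes fitted without VAF3-1 and VAF3-2: MYL6 at 0.17, ACTA2 at 0.13, S100A6 at 1.30, ACTG2 at 0.30, RPS16 at 0.11, FASN at -0.043, THRSP at -0.11 and LPL at -0.21 on the log2 scale. Apart from these, the cause of a changed count was not tested. With 3 libraries a depot, low genes carry few counts, and a gene near 0 in SAF is limited by depth.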

Other observations

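Immune markers differed among the VAF libraries in a way that neither class describes. The 9 macrophage markers summed to 445, 955 and 726 CPM in SAF3-1, SAF3-2 and SAF3-3 and to 961, 2523 and 1502 CPM in VAF3-1, VAF3-2 and VAF3-3. Every VAF sum was thus above every SAF sum, VAF3-1 only narrowly. Of the 9 markers, 4 lay above every SAF library in all VAF libraries, against 8.27% of all tested genes. None lay below every SAF library, against 7.37%. None of the 9 was an all-three or a two-library gene, but with the adipocyte markers held equal 6 of them were higher in all 3 VAF libraries. That scaling put the median of all tested genes 1.30 above the SAF mean in VAF3-1, 1.67 in VAF3-2 and 0.19 in VAF3-3 (log2). The 2-fold limit was thus easily passed in VAF3-1 and VAF3-2. CD163, a scavenger receptor of tissue macrophages, had 54.9, 89.1 and 76.6 CPM in SAF and 75.5, 130 and 211 CPM in VAF, while CSF1R, the receptor for the macrophage growth factor CSF1, was highest in VAF3-2, at 110, 206 and 177 CPM in VAF. LYVE1, a marker of lymphatic vessels and of some macrophages, had 48.0, 55.6 and 57.0 CPM in SAF and 106, 102 and 120 CPM in VAF (DESeq2 adjusted p = 0.00041, edgeR adjusted p = 0.15). Endothelium markers summed to between 1073 and 1844 CPM in all 6 libraries, lowest in VAF3-1. Fibroblast and progenitor markers summed to 37265, 45379 and 44809 CPM in SAF and to 16289, 31649 and 27136 CPM in VAF. All 3 VAF sums were below SAF, but the 10 markers did not share a direction, with a median log2 fold change of 0.08. In all VAF libraries, 2 of them lay above every SAF library, as did 8.27% of all tested genes. Only 1 lay below every SAF library, as did 7.37% of all tested genes. Among the libraries of 3 months, skeletal muscle markers summed to at most 7.38 CPM outside VAF3-1 and VAF3-2, where they summed to 70.5 and 47.7 CPM, and in SAF1-3 they reached 96.1 CPM.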
